A study of Mus musculus and Homo sapiens with 4 samples.

Results

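Interferon-stimulated genes are genes that cells switch on after interferon binds its receptors, and 30 of them were followed here in a mouse and a human tumour line after knock-down of the rRNA methyltransferase gene Merm1. The members were the probe sets whose platform symbol was one of the 30 gene symbols, in upper or lower case. Mouse Oas1a stood for OAS1, mouse Oasl1 and Oasl2 stood for OASL, and RIGI was taken as the current name of DDX58. On the mouse array 28 of the 30 were found, as 29 genes with 48 probe sets, of 18193 named genes in all. On the human array 29 were found, with 48 probe sets, of 19775 named genes. Mouse Isg15 had only a probe set annotated to more than 1 gene and was left out, and mouse Ifi44 and human STAT2 were not analysed here.

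Total RNA of 4 stably infected cell populations was hybridised to Affymetrix 3' arrays, with 1 array for each population. The LM8 knock-down line carried the retroviral vector pSIREN-RetroQ with a hairpin against mouse Merm1 (Wbscr22, now Bud23), and the LM8 control line carried the control vector. LM8 is a murine osteosarcoma line. The A375M knock-down line carried the same vector with a hairpin against the human gene, and the A375M control line the control vector; A375M is a human melanoma line. All 4 populations were therefore retrovirally infected and each knock-down used 1 hairpin vector. The sources used here do not give whether a population was 1 clone or a pool. The deposited numbers were log2 expression values made by the authors with RMA, a method that removes background, brings arrays to a common distribution and combines the probes of each set into 1 value. Every difference below is a log2 value in knock-down cells minus the log2 value in control cells of that line. A group held 1 array, so there is no replicate check, no difference carries a p-value or an error, and precision is limited by how few arrays there are.

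Type I interferons bind the IFNAR1 and IFNAR2 receptor chains, which activate the kinases JAK1 and TYK2. Their signal leads to the complex ISGF3, which holds STAT2 and IRF9 and binds the interferon-stimulated response element in promoters, whereas interferon gamma acts mainly through gamma-activated sites. Cells that make no measurable interferon still keep many of these genes at a basal level, and sensors of foreign RNA, which are themselves induced, can start the loop again.

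The target gene was lower in both arrays labelled knock-down. The Bud23 probe set read 8.48 in LM8 knock-down cells against 10.61 in LM8 control cells, and the BUD23 probe set with the higher level read 8.38 in A375M knock-down cells against 10.70 in A375M control cells. In LM8 all 9 osteoblast markers measured exceeded the array median in both arrays, and in A375M 10 of 12 melanocyte markers did. So did 7 of 11 osteoblast markers in A375M and 4 of 13 melanocyte markers in LM8, so these counts alone do not identify a line. Some A375M melanocyte markers lay little above the median, such as MLANA at 5.19 in knock-down and 4.84 in control cells. Poly-A spike-in transcripts read higher in the LM8 knock-down array, by a median of 0.14 over 24 probe sets, and by 0.026 in A375M. The gap between 3' and 5' beta-actin probe sets was 0.34 in LM8 knock-down cells and 0.35 in LM8 control cells. It was larger in A375M, at 0.995 in knock-down and 0.911 in control cells. As a technical gauge that says nothing of the spread between cultures, the median SD of the difference over probe sets of the same gene was 0.12 for LM8 and 0.071 for A375M. In A375M 45.4% of probe sets were identical in knock-down and control cells, and in LM8 0.706% were. Identical pairs also entered the technical gauge, so it cannot be compared between the lines.

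In LM8 most of these genes were lower in the knock-down cells. For each gene the probe set with the highest mean was used, and the gene was kept when this exceeded the array median in at least 1 of the arrays. This held for 27 of the 29 mouse genes, each of which lay above the median in both arrays, so that none was kept through 1 array alone. Of the 27, 23 were lower and 4 higher in the knock-down array, against 46.0% lower and 53.8% higher among all 11646 kept genes. In total 9 were at least 1.5-fold lower, where 1.31% of kept genes were, and 4 at least 2-fold lower, where 0.318% were. No kept member was at least 1.5-fold higher, where 1.16% of kept genes were. The median difference was -0.43, against 0.015 over all kept genes. Fewer expressing cells and less RNA per cell cannot be told apart in these bulk samples.

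**Figure D1:**
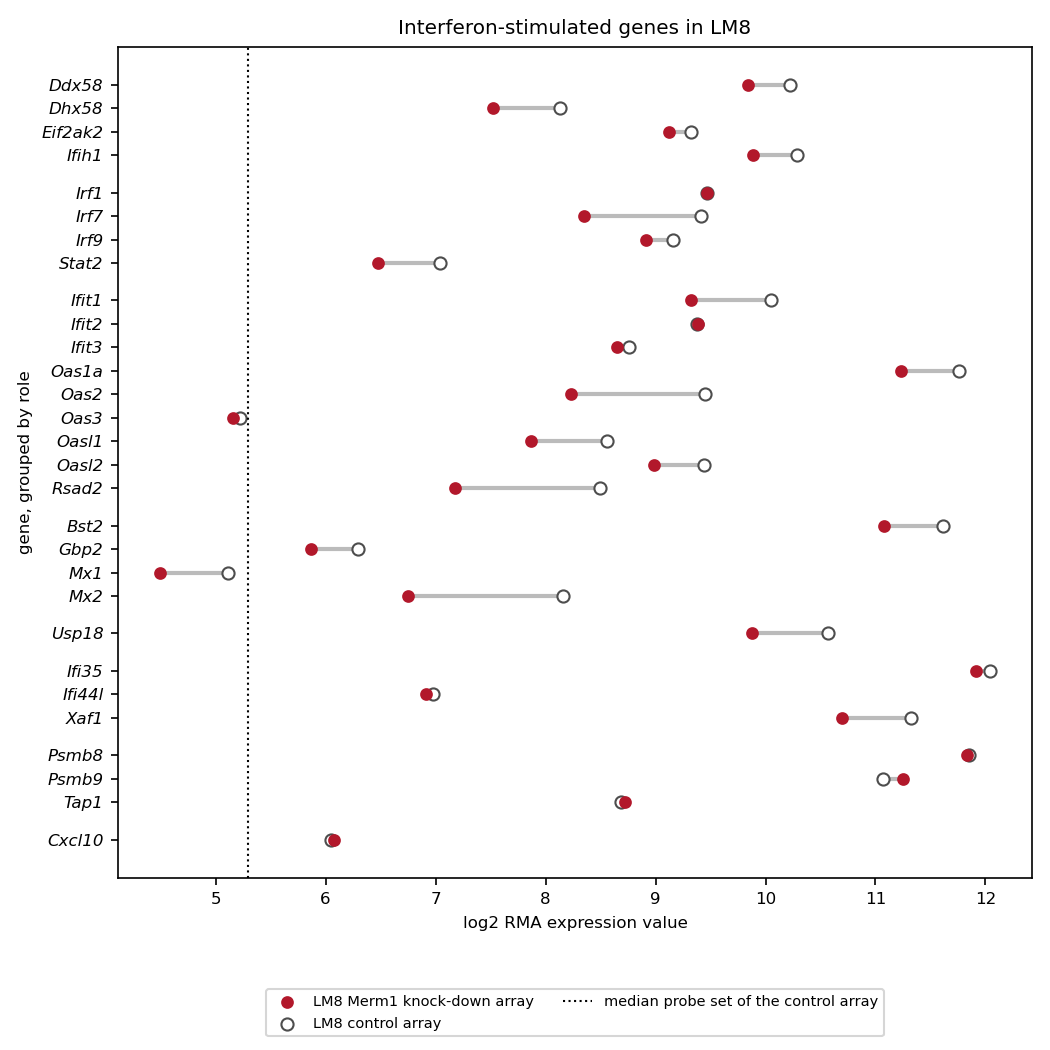
Log2 expression value of each interferon-stimulated gene in the LM8 Merm1 knock-down array (filled) and the LM8 control array (open), with genes grouped by role down the page and the median probe set of the control array as a dotted line. The knock-down point lies left of the control point for 23 of the 27 genes above the line, by up to 1.41 for Mx2, while Irf1, Ifit2, Psmb8, Tap1 and Cxcl10 nearly coincide.

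The RNA sensors and the RNA-activated kinase were all lower. Ddx58, which encodes the RIG-I helicase, read 9.84 in knock-down against 10.22 in control cells, and its 3 probe sets differed by -0.50 to -0.30. Ifih1, which encodes the helicase MDA5 that recognises long double-stranded RNA, read 9.89 in knock-down against 10.29 in control cells. Both sensors thus lay about equally far below their control value, at 76.6% and 75.7% of it. Dhx58, which encodes the related regulator LGP2, read 7.52 in knock-down against 8.13 in control cells, a difference of -0.61, and its dimmer probe sets differed by -0.48 and -0.35. Eif2ak2, which encodes the kinase PKR that halts translation, read 9.12 in knock-down against 9.32 in control cells, and its 3 probe sets differed by -0.20 to -0.14. This was the smallest difference of the group, although all 3 probe sets had the same sign.

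Among the transcription factors Irf7 stood lowest and Irf1 was close to its control value. Irf7, which encodes the factor that drives the amplifying phase of interferon production, read 8.35 in knock-down against 9.41 in control cells, or 47.8% of the control level. Stat2, the ISGF3 subunit gene, read 6.47 against 7.04 on one probe set and 5.92 against 6.26 on the other, with the knock-down value first. Its larger difference, -0.56, lay just short of the 1.5-fold threshold of 0.585, and that of Dhx58 just beyond it. Irf9, the DNA-binding subunit gene of ISGF3, read 8.91 in knock-down against 9.15 in control cells. Irf1, which encodes a factor induced mainly by interferon gamma and NF-kB, read 9.46 in knock-down and 9.47 in control cells, a difference of -0.0057 that became 0.0059 when each array was centred on its median.

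The RNA-binding and nucleotide-modifying effectors included Rsad2 and Oas2, among the lowest of all members. Rsad2 encodes viperin, an enzyme that makes a chain-terminating nucleotide, and read 7.18 in knock-down against 8.50 in control cells. Its other probe sets read 5.75 against 7.07 and 5.59 against 6.82, so that all 3 differed by -1.32 to -1.23. Agreement between probe sets was therefore close for this gene, which was 2.50-fold lower on the one with the highest mean. Oas2, one of the oligoadenylate synthetase genes whose product activates RNase L, read 8.23 in knock-down against 9.45 in control cells, or 42.9% of the control level. Oas1a read 11.24 in knock-down against 11.76 in control cells. Oas3 lay below the array median, at 5.16 in knock-down and 5.22 in control cells. The kept members of this family thus differed by unequal amounts, -0.53 for Oas1a and -1.22 for Oas2. The difference of Oas3, -0.065, is imprecise at its level.

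Oasl1 and Oasl2 encode relatives of the synthetases, and in mouse Oasl1 is known to repress translation of Irf7 mRNA. Oasl1 read 7.87 in knock-down against 8.56 in control cells, and Oasl2 read 8.99 against 9.45. Both were lower, with differences of -0.69 and -0.46. The Ifit genes went apart. Ifit1, whose product binds foreign RNA 5' ends and blocks translation of that RNA, read 9.32 in knock-down against 10.05 in control cells. By contrast, Ifit3 read 8.65 against 8.76 and Ifit2 9.38 in both. Ifit1 was thus at 60.3% of its control level, Ifit3 at 92.4% and Ifit2 at 100.3%. Each had 1 probe set, and mouse carries close copies of Ifit1, Ifit3 and Oas1a whose transcripts these probes could also read.

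The GTPases and membrane proteins were all lower. Mx2, which encodes an antiviral GTPase, had the lowest difference of the 29 genes, at 6.75 in knock-down against 8.16 in control cells, or 37.6% of the control level. Mx1, its nuclear relative, lay below the array median, at 4.49 in knock-down against 5.11 in control cells, and a difference at that level is imprecise. Gbp2, which encodes a guanylate-binding protein, read 5.86 against 6.29 and 5.69 against 5.97, with the knock-down value first. Bst2, which encodes tetherin, a protein that holds budding virus at the cell surface, read 11.08 in knock-down against 11.61 in control cells. Bst2 was thus 1.45-fold lower at a level far above the array median.

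Usp18 encodes the protease that removes the ubiquitin-like ISG15 from proteins and also inhibits IFNAR2 signalling. It read 9.88 in knock-down against 10.57 in control cells, a difference of -0.69. Xaf1, which encodes an antagonist of the apoptosis inhibitor XIAP, read 10.69 in knock-down against 11.33 in control cells, while its probe set below the array median differed by -0.086. Ifi35 differed by -0.40, -0.23 and -0.13 on its probe sets. Ifi44l differed by -0.066 on the probe set with the highest mean, with others at -0.099 and 0.11, and so had no common sign.

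Genes of antigen processing and the chemokine gene were close to their control values, apart from Psmb9, which was higher. Psmb8 and Psmb9 encode catalytic subunits of the immunoproteasome, and Tap1 encodes a subunit of the peptide transporter for MHC class I. Psmb8 read 11.83 in knock-down and 11.85 in control cells, and Psmb9 read 11.25 against 11.06. Psmb9, at 0.18, had the highest difference of the kept members. Tap1 read 8.72 in knock-down and 8.69 in control cells, and its 3 dimmer probe sets differed by -0.26 to 0.057. Cxcl10, which encodes a T cell attracting chemokine induced by interferon gamma, read 6.08 in knock-down and 6.05 in control cells. No gene of these classes reached 1.5-fold in either direction.

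Promoter sequences of the mouse genes were taken from RefSeq on GRCm38.p6 as windows of 250 bases before and 50 after each gene start. Of the members 26 mouse genes had a window in the table, Isg15 and Ifi44 among them, and 13 of the 26 held the core of the interferon-stimulated response element, searched on both strands as TTTC, any 2 bases and TTTC again, or as the reverse complement with GAAA in place of TTTC. Over all 27025 genes with a window, 3.99% held it. The gamma-activated site, searched as TTCNNNGAA, which reads the same on both strands, was in 7 of the 26 and in 9.55% of all genes, and in Bst2 it overlaps the response element. A match is a match of letters and not a shown binding site. The stretches below are upstream of the start, 5' to 3' on the gene's strand, with the response element core in capitals; overlapping matches run together. They show Rsad2, Ifit1, Stat2 and Oas1a, which combine an upstream match with low differences, then Ifit3, which has matches and a small difference. Irf7 and Oasl1 come last, as the lowest members with no match in the window. Bst2, with 2 upstream matches and a difference of -0.53, slightly lower than that of Oas1a, is not printed.
Rsad2: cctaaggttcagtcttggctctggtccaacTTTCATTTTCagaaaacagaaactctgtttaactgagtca
Ifit1: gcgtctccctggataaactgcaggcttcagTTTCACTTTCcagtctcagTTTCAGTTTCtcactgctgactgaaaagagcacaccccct
Stat2: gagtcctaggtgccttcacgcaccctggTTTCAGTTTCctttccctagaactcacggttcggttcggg
Oas1a: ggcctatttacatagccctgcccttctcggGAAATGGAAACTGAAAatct
Ifit3: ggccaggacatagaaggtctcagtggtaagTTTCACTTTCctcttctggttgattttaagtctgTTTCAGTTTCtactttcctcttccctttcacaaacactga
Irf7: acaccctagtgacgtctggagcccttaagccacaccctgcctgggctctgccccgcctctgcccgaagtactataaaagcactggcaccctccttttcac
Oasl1: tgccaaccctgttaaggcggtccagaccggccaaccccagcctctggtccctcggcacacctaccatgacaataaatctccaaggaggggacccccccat

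The Rsad2 stretch is chr12:26456533-26456602 on the minus strand, with its match from base -120 to -111 before the start. The Ifit1 stretch is chr19:34640755-34640843 on the plus strand, with matches starting at -104 and -85, and the Ifit3 stretch is chr19:34583343-34583446 on the plus strand, with matches starting at -156 and -122. Ifit1 and Ifit3, whose starts lie 57360 bases apart, thus both carry a pair of matches, with differences of -0.73 and -0.11. The Stat2 stretch is chr10:128270248-128270315 on the plus strand and the Oas1a stretch chr5:120907526-120907575 on the minus strand. In Oas1a the matches lie closest to the start of those shown, beginning at -20 and -14. The Irf7 stretch is chr7:141266425-141266524 on the minus strand and the Oasl1 stretch chr5:114923140-114923239 on the plus strand.

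Among the kept mouse members with a window, 11 held the response element core, of which 10 were lower, with a median difference of -0.43. Of the 12 without it 9 were lower, with a median of -0.098. Among all kept LM8 genes 46.0% were lower and 1.31% at least 1.5-fold lower, with a median of 0.015. At least 1.5-fold lower were 2 of the 11, Rsad2 and Ifit1, and 3 of the 12, Irf7, Oasl1 and Xaf1. Mx2, Oas2, Usp18 and Dhx58, the other members at least 1.5-fold lower, and Mx1 are not in the table, so these counts cover 5 of the 9 such genes. For the gamma-activated site the median was -0.13 over 7 genes with it and -0.42 over 16 without it. The divergent genes Psmb9 and Tap1 start 226 bases apart on mouse chromosome 17, share most of their window and hold neither motif there, with differences of 0.18 and 0.036. These are descriptions of 1 array pair, and no test was run on them.

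**Figure D2:**
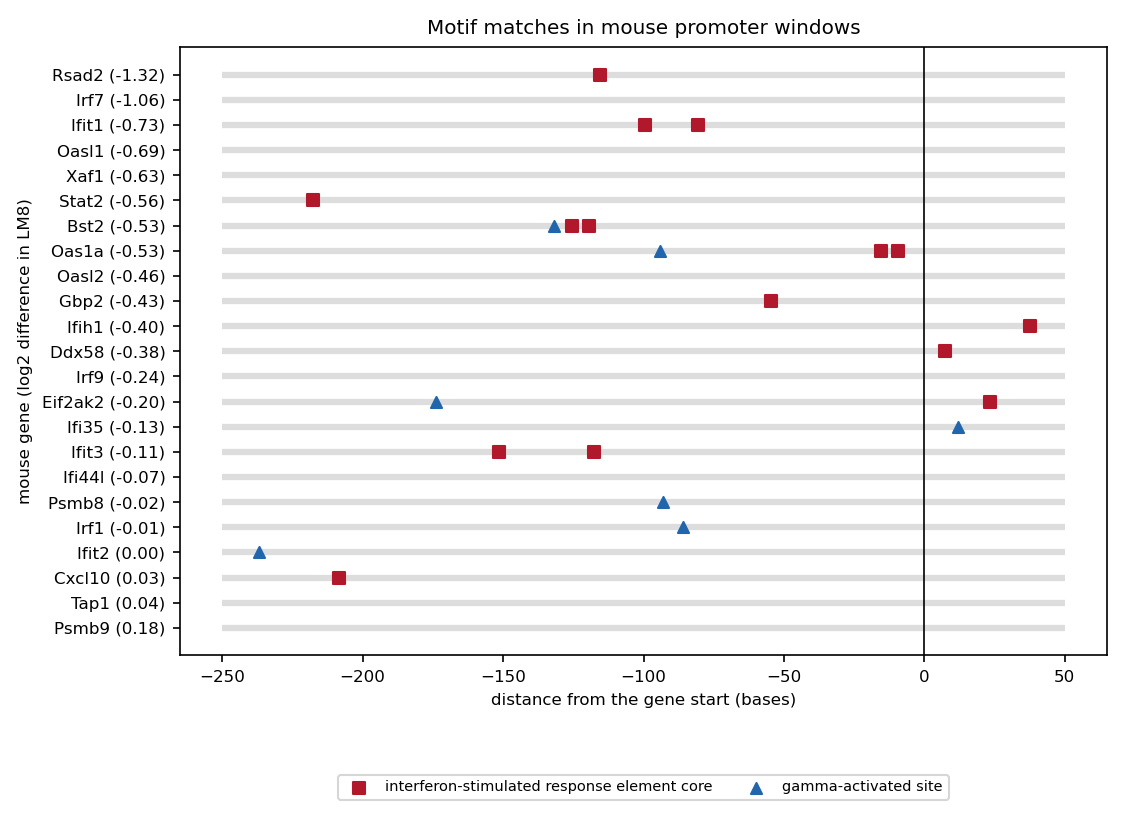
Position of motif matches in the mouse promoter windows, in bases from the gene start, for the 23 kept members with a window, ordered down the page by their log2 difference in LM8 (knock-down minus control, in parentheses). Squares mark the response element core, found in 11 genes, and triangles the gamma-activated site, found in 7; matches of genes with more than 1 window are drawn on 1 line.

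In A375M the same genes differed little. Of the 29 human genes 23 were kept, each above the median in both arrays. Of these 15 were lower, 5 higher and 3 identical in the knock-down array, against 40.3% lower, 29.0% higher and 30.8% identical among all 13244 kept genes. None was at least 1.5-fold lower, where 0.37% of kept genes were, or at least 1.5-fold higher, where 0.378% were. The median difference was -0.026, against 0 over all kept genes. With each array centred on its own median the split was 19 lower of 23, because that moves all genes by -0.03 and the identical ones with them. When probe sets ending in _x_at or _s_at, which can read several transcripts, were left out, 15 genes were kept and their median was -0.15.

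**Figure D3:**
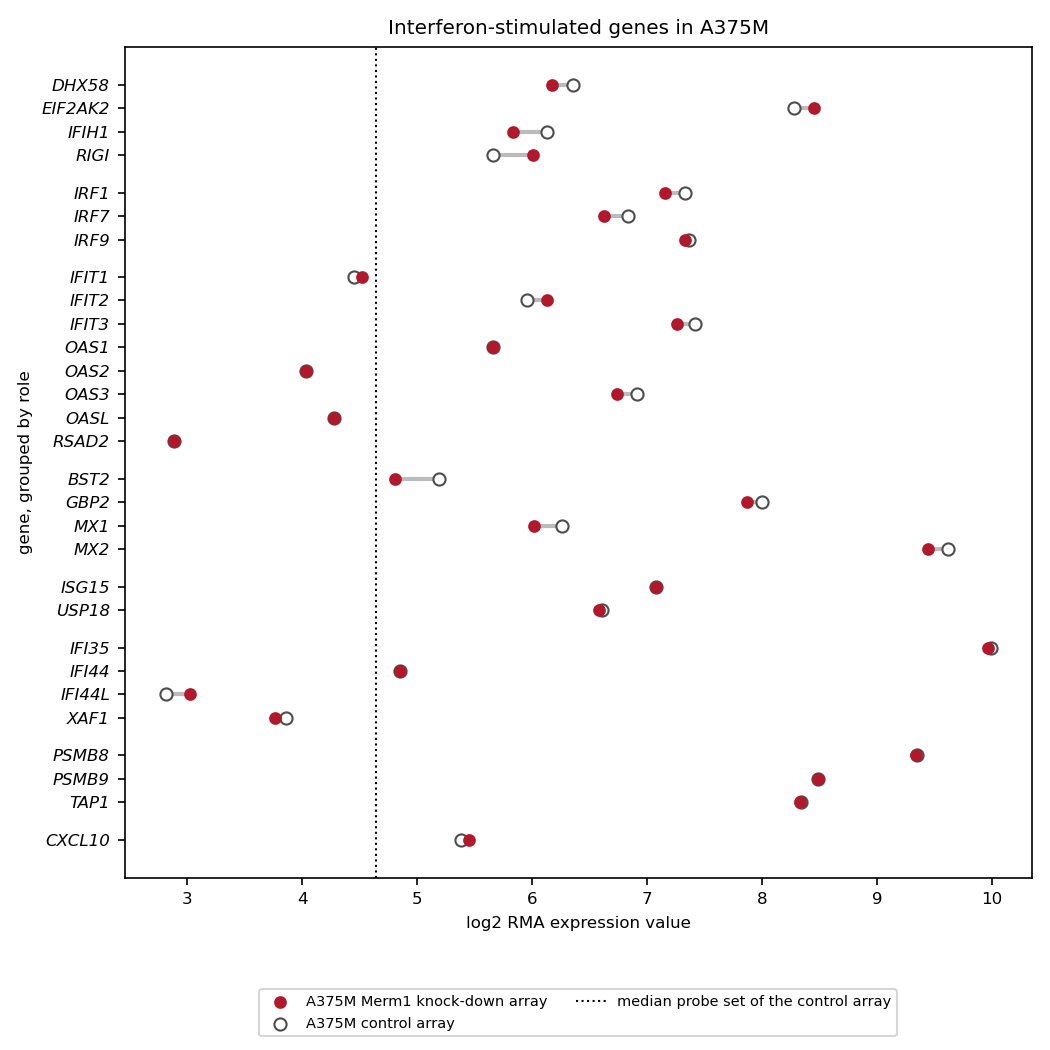
Log2 expression value of each interferon-stimulated gene in the A375M Merm1 knock-down array (filled) and the A375M control array (open), with genes grouped by role down the page and the median probe set of the control array as a dotted line. The points lie close together or coincide, with the widest gap, 0.39, for BST2, and IFIT1, OAS2, OASL, RSAD2, IFI44L and XAF1 lie left of the line.

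Many human probe sets carried a value that others shared, which limits what a difference of 0 says. Of the 48 member probe sets 18 were identical in both arrays, and in 32 the control value recurred in at least 1 other probe set, as it did in 67.4% of all human probe sets. The probe sets of RSAD2 read 2.89 in both arrays and 2.50 in knock-down against 2.59 in control cells, and the last of these values occurred in 838 probe sets. OAS1 and OASL, on different probe sets, both read 4.28 in both arrays. No source used here names the step that made them, so an identical pair is not a measurement of no change.

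The human sensors had no common direction. IFIH1 read 5.83 in knock-down against 6.13 in control cells, with its probe sets below the median identical. The RIGI probe set with the highest mean, whose name marks it as sharing probes with other transcripts, read 6.004 in knock-down against 5.659 in control cells. Another read 4.00 against 4.66 and was kept by its control value alone, and the last was identical at 4.39, so the probe sets of RIGI disagreed in sign. DHX58 read 6.17 in knock-down against 6.35 in control cells. EIF2AK2 read 8.45 in knock-down against 8.28 in control cells on a probe set marked as shared, and 7.38 in both on another.

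The transcription factors and the GTPases were lower on every kept gene, by small amounts. IRF7 read 6.62 in knock-down against 6.83 in control cells, IRF1 read 7.15 against 7.33 and IRF9 read 7.33 against 7.37. The second IRF1 probe set was identical at 6.37. MX1 read 6.01 in knock-down against 6.26 in control cells and MX2 9.44 against 9.62. BST2, close to the array median at 4.80 in knock-down against 5.19 in control cells, had the lowest difference of the kept human members, -0.39. GBP2 read 7.867 in knock-down against 7.995 in control cells, and 5.27 against 5.96 on its dimmer probe set. That second probe set, at -0.70, was the lowest difference of all 48 human member probe sets.

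Among the human effectors IFIT2 read 6.13 in knock-down against 5.96 in control cells, and its other probe set also lay 0.15 higher. IFIT3 read 7.26 against 7.42 on one probe set and 6.76 against 6.47 on the other, with the knock-down value first, and so had no common sign. OAS3 read 6.74 in knock-down against 6.91 in control cells. ISG15, which encodes the ubiquitin-like modifier itself, read 7.08 in both arrays, and USP18 read 6.58 in knock-down and 6.61 in control cells. PSMB8, PSMB9 and TAP1 differed by -0.0057, 0.008 and -0.014, IFI35 by -0.026 and CXCL10 by 0.07. Each of the differences of PSMB8, PSMB9, TAP1, IFI35, USP18 and CXCL10 was smaller than the median SD between probe sets of a gene. IFI44 read 4.85 and OAS1 5.66 in both arrays.

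**Figure D4:**
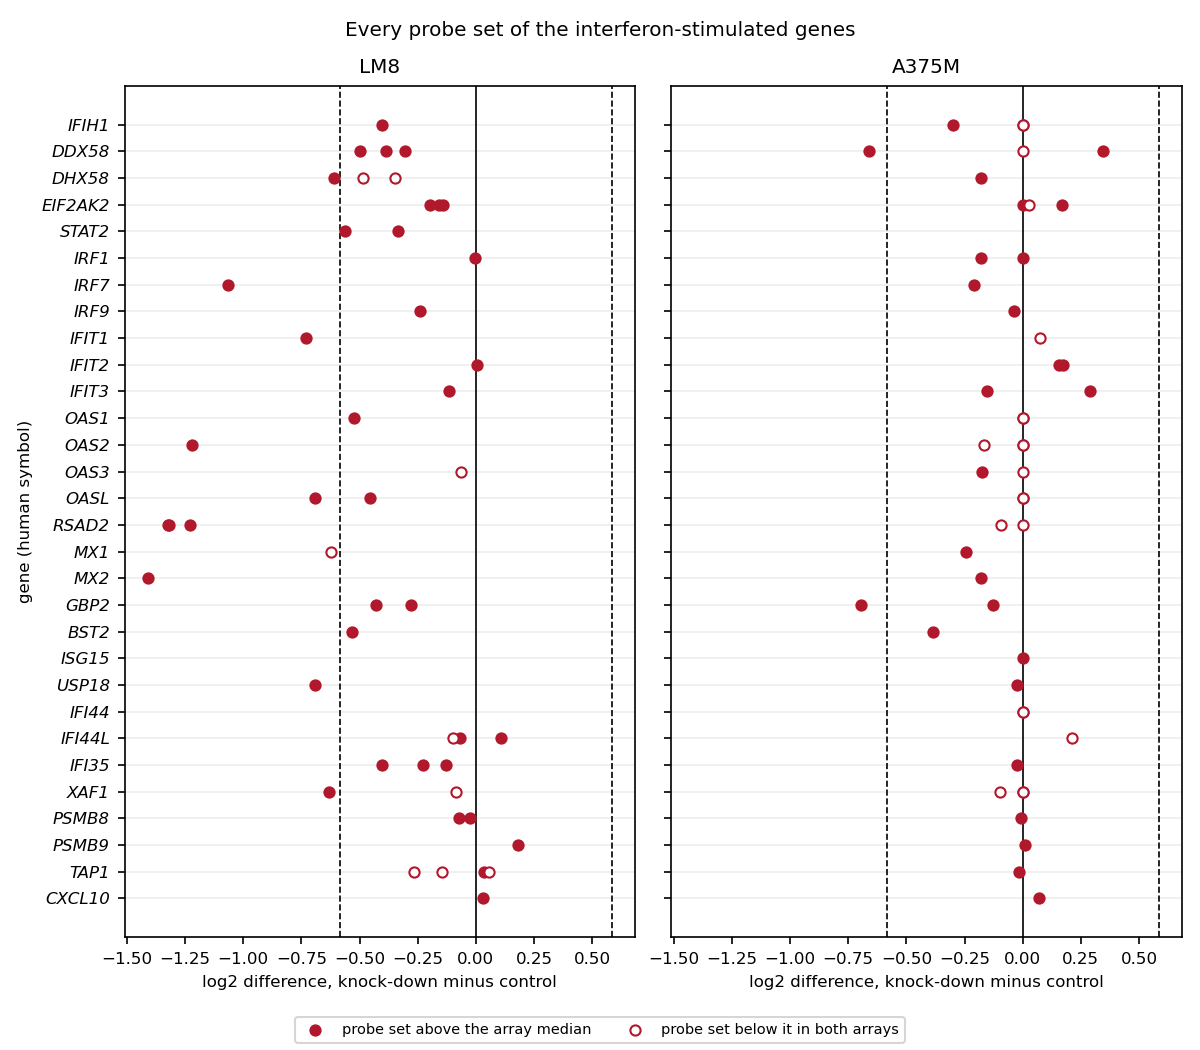
Log2 difference (knock-down minus control) of all 48 mouse and 48 human probe sets of the interferon-stimulated genes, 1 point each, by gene down the page, with dashed lines at 1.5-fold. In LM8 42 points lie below 0 and 6 above it. In A375M 20 lie below, 10 above and 18 on 0, and many of the open points, below the array median in both arrays, are among the last.

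Set side by side, 19 members had a kept gene in both lines. Of these, 12 were lower in both and 3 higher in both. Another 2 were lower in LM8 and higher in A375M, and 1 was the reverse. The last 1 was lower in LM8 and identical in A375M. Among all kept genes 46.0% were lower in LM8 and 40.3% in A375M, and a share for both lines together was not computed. Several signs rest on differences smaller than the median SD between probe sets of a gene. Of those lower in both, IRF1 differed by -0.0057 in LM8, and PSMB8 by -0.024 in LM8 and -0.0057 in A375M. So did IFIT3, by -0.11 in LM8, and IFI35, IRF9 and USP18, by -0.026, -0.037 and -0.026 in A375M. Of those higher in both, CXCL10 differed by 0.03 in LM8 and 0.07 in A375M, IFIT2 by 0.0037 in LM8 and PSMB9 by 0.008 in A375M. The median difference of the 19 was -0.24 in LM8 and -0.026 in A375M, and 15 of the 19 differences were lower in LM8 than in A375M. The matching share over all genes kept in both lines was not computed, so this count has no background beside it. The members with the widest gap between lines were MX2, at -1.41 in LM8 and -0.18 in A375M, and IRF7, at -1.06 and -0.21. Of the remaining mouse genes at least 2-fold lower, RSAD2 and OAS2 were below the array median in A375M, so their human values bear little on the comparison. Whether the lines differ was not tested, since each holds 1 array per group, and the arrays are of different design.

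Upstream of these genes, LM8 showed few differences of similar size. Of all kept LM8 genes 46.0% were lower and 53.8% higher. Of 9 mouse interferon genes measured only Ifnz, of the interferon zeta family, was kept, at 10.40 in knock-down against 10.11 in control cells. Ifnb1 lay below the array median at 4.71 in knock-down and 4.50 in control cells. Of 5 kept receptor genes 4 were lower and none passed 1.5-fold, with Ifngr1 at -0.31, Ifnar2 at -0.13, Il10rb at -0.12 and Ifnar1 at 0.11. A second Ifnar1 probe set, below the array median, read 3.76 in knock-down against 4.31 in control cells, and with probe sets averaged within genes all 5 kept receptor genes were lower. Of 7 kept JAK-STAT genes 5 were higher and none passed the threshold. Jak1, the kinase bound to both receptor types, differed by 0.48 and 0.46 on its probe sets with the higher levels and by -0.16 on the third. Stat5b differed by 0.30 on one probe set and by -0.31 on the other, and so had no common sign. Stat3 differed by -0.22 on the probe set with the highest mean and by -0.16 to 0.33 on the others. Stat5a differed by 0.17, and by 0.67 on a probe set below the array median.

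Inhibitors and sensing genes in LM8 also stayed inside 1.5-fold on the probe set with the highest mean. A dimmer probe set of the sensing gene Trim25 differed by -0.60. Among all kept LM8 genes 46.0% were lower, with a median of 0.015. Of 12 kept inhibitor genes 7 were lower, with a median of -0.021, but with probe sets averaged within genes 2 of 11 were lower and the median was 0.093. Socs1 and Socs2, which encode suppressors of cytokine signalling, differed by -0.34 and -0.30, Socs3 by 0.29 and Pias4 by -0.18. Other Pias4 probe sets differed by -0.082 and 0.31, the last below the array median. Of 17 kept genes of nucleic acid sensing 11 were lower, with a median of -0.099. Zbp1, a sensor gene that is itself interferon-induced, differed by -0.39. Mavs, the adaptor gene of RIG-I and MDA5, differed by -0.39 on one probe set and by -0.17 on the other. Myd88 differed by -0.28 and Traf6 by 0.29, with other Traf6 probe sets at -0.18 to 0.12.

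A second list of interferon-stimulated genes, which holds none of the 30, was mostly lower in LM8 as well. It was read on the same array pair and chosen with earlier results of these data known, so it is not independent support. Of 49 kept genes 36 were lower, 7 at least 1.5-fold and 2 at least 2-fold. None was at least 1.5-fold higher, and the median was -0.28. Of all kept LM8 genes 46.0% were lower, 1.31% at least 1.5-fold and 0.318% at least 2-fold, and the median was 0.015. Ifi27l2a read 5.47 in knock-down against 6.87 in control cells. Cmpk2, a nucleotide kinase gene whose start lies 12763 bases from that of Rsad2 on mouse chromosome 12, read 5.80 in knock-down against 7.15 in control cells. Its dimmer probe set, under the array median, had a difference of -0.15. Uba7, which encodes the activating enzyme of ISG15, differed by -0.78, -1.12 and -0.037 on its probe sets, and Irgm1, an immunity-related GTPase gene, by -0.75. Ube2l6, which encodes the conjugating enzyme of ISG15, read 8.20 in knock-down and 8.19 in control cells. Of 14 kept MHC class I pathway genes 9 were lower and none passed 1.5-fold, with a median of -0.041. Tapbpl differed by -0.19 (0.24 on a probe set below the array median), Psmb10 by -0.17 and Calr by -0.14. H2-D1 differed by 0.14 on the probe set with the highest mean, and its 9 probe sets ranged from -0.30 to 0.14.

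In A375M the second list had a median of 0 over 44 kept genes, 16 lower and 19 higher, with none at 1.5-fold. Of all kept A375M genes 40.3% were lower and 29.0% higher. With each array centred on its median 29 of the 44 were lower. Centring moves all A375M genes by -0.03, so identical ones become lower. The share of all kept genes lower after centring was not computed. IFITM2, which encodes a membrane protein that blocks virus entry, differed by 0.42, CXCL11 by -0.36, NMI by -0.30 and IFI27L1 by 0.26. All 6 kept receptor genes were lower, with a median of -0.14, and 4 of 5 were lower without probe sets ending in _x_at or _s_at. IFNAR1, the type I receptor chain, read 6.06 in knock-down against 6.90 in control cells and 5.94 against 6.85 on another probe set, while the others differed by -0.15 and 0. With probe sets averaged within genes no receptor gene was 1.5-fold lower. IFNLR1 differed by -0.35 on one probe set and by 0.074 on the other, and so had no common sign. IFNGR2 differed by -0.14, and IFNAR2 by -0.14 with its other probe sets identical. Of 16 kept MHC class I pathway genes 10 were lower, 16 with the arrays centred and 4 of 13 without probe sets ending in _x_at or _s_at, and TAPBP, the tapasin gene, differed by -0.81 on one probe set, by -0.026 on another and by 0 on the last. ERAP1 differed by -0.28 (0.34 on a probe set below the array median), HLA-B by -0.16 and HLA-C by -0.11.

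The remaining pathway genes of A375M stayed within 1.5-fold. Among all kept A375M genes 40.3% were lower, 29.0% higher and 30.8% identical. JAK-STAT genes had 4 lower and 0 higher of 6, with STAT3 at -0.20, JAK1 at -0.12, STAT5A at -0.021 and STAT5B at -0.0043. Centring the arrays made all 6 JAK-STAT genes, 10 of 12 inhibitor genes and 15 of 17 sensing genes lower. It moves every gene by -0.03 and turns identical ones lower, and the centred share over all kept genes was not computed. Among the 12 inhibitor genes 7 were identical in both arrays. CISH differed by 0.33, PIAS2 by -0.25 with other probe sets at 0 to 0.19, and PIAS4 by 0.089. SOCS2 differed by -0.082, and by -0.36 and 0.17 on its other probe sets. Among 17 sensing genes 8 were lower, with TLR4 at -0.15, TRAF3 at -0.13, RNF135 at -0.12 and STING1 at 0.094. IFNA17, the only interferon gene kept of 17, read 4.87 in knock-down against 4.47 in control cells on a probe set marked as shared.

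**Figure D5:**
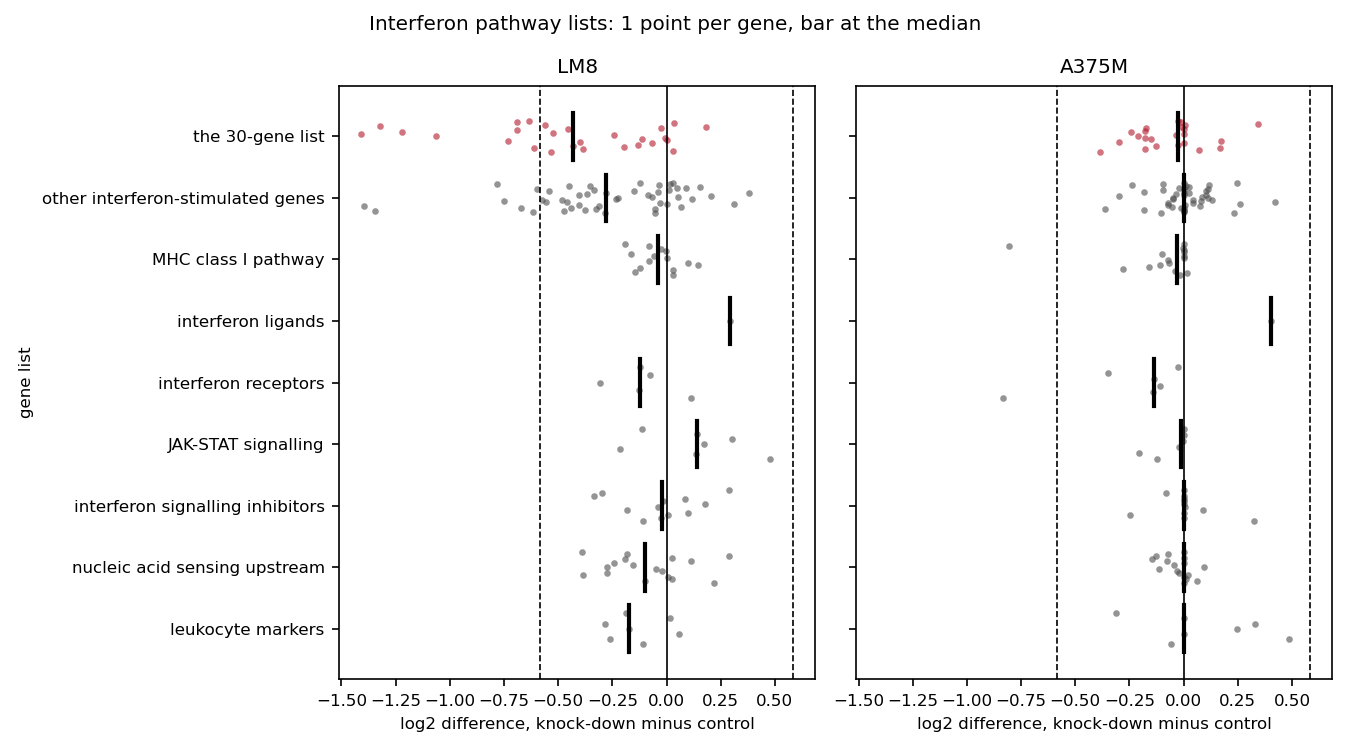
Log2 difference (knock-down minus control) of each kept gene, 1 point per gene, for the interferon-stimulated genes, the other pathway lists and leukocyte markers down the page, with black bars at the medians and dashed lines at 1.5-fold. In LM8 the medians of the interferon-stimulated genes (-0.43) and of the second such list (-0.28) lie lowest, and in A375M all lists with more than 1 gene have medians between -0.14 and 0.

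Leukocytes express many of these genes, so their markers are given beside the LM8 result. Of 13 markers measured 7 were kept, 5 of them lower, with a median of -0.17, where 46.0% of all kept LM8 genes were lower. The summed linear level of all 13 was 1707 in knock-down against 1989 in control cells. Fcer1g, at 10.23 in knock-down against 10.51 in control cells, made up most of that sum. Ptprc, the defining pan-leukocyte gene, lay below the array median at 3.46 in knock-down and 3.09 in control cells, as did Itgam at 3.29 and 3.32. In A375M the summed level of 12 markers was 498 in knock-down against 473 in control cells. Endothelial markers summed to 276 in LM8 knock-down and 295 in LM8 control cells, and to 226 and 247 in A375M. The part of such cells in the result was not tested.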

How the data were processed

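The authors deposited log2 expression for every probe set, computed with RMA (no version given) according to the labels, per the submitters' processing notes. Nothing was renormalised. Gene names came from GEO's platform annotation, and only a probe set with a single symbol named a gene. Each gene was read from its single-symbol probe set of highest mean, and kept where this exceeded the 50th percentile of an array's non-control values in 1 array or both. Differences are knock-down minus control, called at 1.5-fold with 2-fold beside it. No test was possible with 1 array per group. The named genes were all members, the target gene and, of each pathway list, up to 4 kept genes with the largest absolute differences. Other genes named, among them Ifnb1, Ube2l6 and single markers, were chosen after their values were seen. The members and lists were chosen with earlier results of these data known. Promoter windows came from RefSeq on GRCm38.p6, matched by symbol, and motifs were searched as exact letters. Alternatives were no filter, a filter at the 70th percentile, median centring, a loess curve (span 0.4), probe sets averaged within genes, no probe sets ending in _x_at or _s_at, and 32 added to linear values. Python 3.11.15, pandas 2.3.3 and statsmodels 0.14.6 were used, and the scripts were tested on simulated data.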

Additional observations from a re-analysis of the deposited data

Results flagged for a closer look

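In 3 members kept in both lines the difference had opposite signs in LM8 and A375M, and the difference between the lines was not tested. DDX58 differed by -0.38 in LM8, where its 3 probe sets shared that sign, and by 0.35 in A375M (named RIGI there), where they disagreed. EIF2AK2 differed by -0.20 in LM8 and by 0.17 in A375M, where it was read on a probe set marked as shared between transcripts. TAP1 differed by 0.036 in LM8 and by -0.014 in A375M, both smaller than the median SD between probe sets of a gene.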

How the results depend on the processing

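Of 46 recomputed values 44 stayed close to the reported ones. A count was called close within a factor of 1.5, and a median when it moved by less than the median SD between probe sets of a gene. The counts at least 1.5-fold higher in LM8, and lower or higher in A375M, were 0 throughout. For A375M that SD, 0.071, exceeds the size of the median, -0.026, so closeness says little there. The exceptions were the count of genes at least 1.5-fold lower in LM8, which was 4 with a 2-fold threshold, and the A375M median, which was -0.15 without probe sets ending in _x_at or _s_at. Over the other alternatives that count ranged from 7, when probe sets were averaged within genes, to 10, without the filter, and the LM8 median from -0.46 to -0.39. Single genes changed sign in 1 alternative each, namely Irf1, Ifit2 and Tap1 in LM8 and IFIT3, PSMB8, PSMB9 and RIGI in A375M, the last to -0.10 when its probe sets were averaged. No paired analysis was possible because each line holds 1 array per group and the labels give no replicate numbers. RMA equalises the arrays, so a shift of all genes would not be seen, and the 1 array per group leaves no replicate check.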
